A study of Mus musculus with 15 samples.

Results

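The Hox cluster genes were the 39 mouse genes whose symbol is Hoxa, Hoxb, Hoxc or Hoxd followed by a number. They were found by the RefSeq accession of the array probes and had 44 probes, of 55681 probes and 21368 named genes on the array. Of the 39 genes 5 had 2 probes, Hoxa9, Hoxa13, Hoxb3 and Hoxd11 among them, and the others 1. HoxA had 11 genes, HoxB 10, HoxC 9 and HoxD 9.

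Hox genes encode homeodomain transcription factors that give cells of the embryo their position along the head to tail axis. In each cluster the genes lie in the order in which they are used, with the low-numbered anterior genes switched on first and further forward in the body and the high-numbered posterior genes later and nearer the tail. Genes of the same number in different clusters are paralogs. In embryonic stem cells the clusters are mostly held silent by Polycomb complexes, and retinoic acid, Wnt signalling and the Cdx factors open them during differentiation.

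All 15 samples were mouse embryonic stem cells grown on gelatin in stem cell medium, with 3 single-colour arrays of total RNA in each of 5 groups. Nat1-null cells carrying a doxycycline-inducible Map3k3 transgene (tet-Map3k3), which encodes a kinase that acts upstream of MAP kinases, were cultured with doxycycline (Dox). Nat1-null cells carrying a tet-EGFP transgene were cultured with Dox, and tet-Map3k3 cells were cultured without it. Nat1-null cells without a named transgene and wild-type cells completed the set. All groups but wild type therefore share the loss of Nat1, a translation factor listed by RefSeq as Eif4g2. The labels do not give the strain, the allele, the time in Dox, or whether a line is 1 clone. Nothing states that replicates came from separate cultures, and the p-values therefore rest on a spread between samples that may be technical.

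The signal of a probe is given as log2 of the processed intensity minus the 75th percentile of its array, so 0 is the level of a well expressed probe. Levels are compared between groups for the same probe and never between probes. The 75th percentile intensity was 495 to 615 arbitrary units over the 15 arrays, and 42.7% to 53.9% of probes per array were well above background by the scanner software. The Eif4g2 probe was at 1.71 ± 0.20 in null cells and 4.31 ± 0.15 in wild-type cells (SD, n = 3 each). The Map3k3 probe differed by 0.18 between tet-Map3k3 cells with and without Dox (SE 0.12, limma adjusted p = 0.236), and where it lies relative to the transgene is not given. All 10 stem cell markers tested, Pou5f1, Sox2 and Nanog among them, were well above background on all arrays of every group. Slide 1 held all tet-Map3k3 arrays and EGFP replicates 1 and 2, and slide 2 held the null and wild-type arrays and EGFP replicate 3. The null arrays lay in row 2 of their slide and the wild-type arrays in row 1. All arrays without Dox lay in row 1, and replicates 2 and 3 of tet-Map3k3 with Dox in row 2. The rows differed, with 50.8% to 53.9% of probes well above background in row 1 and 42.7% to 49.2% in row 2. The lowest signal of an array was 4.33 to 4.83 units in row 1 and 6.12 to 12.7 units in row 2.

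Replicate 2 of tet-Map3k3 with Dox stood apart. It had the lowest share of probes well above background of the 15 arrays, 42.7%, and the highest lowest signal, 12.7 units against 4.33 to 7.57 units on the others. It was the highest of its group for 28 of the 39 Hox genes, and for 10 of the 15 tested below. Many of the 39 were dim and lay near the lowest signal, and the share over all genes was not computed. Results that rest on this array are given with and without it.

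Few Hox genes were detected in any group, and tet-Map3k3 cells with Dox showed the most. A gene counted as detected in a group when 1 of its probes was well above background on all 3 arrays. This held for 12 of 39 genes in tet-Map3k3 cells with Dox, 9 in tet-EGFP cells with Dox, 10 in tet-Map3k3 cells without Dox, 8 in null cells and 9 in wild-type cells. Counted per array, 18, 18 and 15 Hox genes were above background in tet-Map3k3 cells with Dox. The counts were 12, 11 and 11 in tet-EGFP cells with Dox, 13, 12 and 10 in tet-Map3k3 cells without Dox, 10, 9 and 9 in null cells and 10, 11 and 9 in wild-type cells. The higher Hox count did not go with a higher share of all probes, since 41.8% of probes passed in tet-Map3k3 cells with Dox, 45.1% in tet-EGFP cells with Dox, 48.9% without Dox, 44.8% in null cells and 51.0% in wild-type cells. On all 15 arrays 5 Hox genes were above background, Hoxa7, Hoxb9, Hoxb13 and Hoxc13 among them. Hoxa2, Hoxa5, Hoxb1, Hoxb2, Hoxb5, Hoxc5, Hoxd1, Hoxd4, Hoxd9 and Hoxd10 were above it on none.

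Testing took in the genes that were detected in 1 group or more, 14443 genes in all and 15 of the 39 Hox genes. Those described here are Hoxa3, Hoxa7, Hoxa9, Hoxb4, Hoxb7, Hoxb9, Hoxb13, Hoxc4, Hoxc6, Hoxc9, Hoxc10, Hoxc11, Hoxc13 and Hoxd13. Hoxa3 and Hoxc6 passed only through tet-Map3k3 cells with Dox, so a difference of theirs in favour of that group was built into the choice. Hoxb4, Hoxb7 and Hoxd13 passed only through that group and wild type, so a higher signal there than in the other groups was favoured too. Hoxc11 passed through the 3 other groups, so a higher signal in those was favoured. Hoxa9 passed through 2 groups, Hoxc10 through 2, Hoxc4 and Hoxc9 through 4 and the remaining 5 through all. Since each gene had to be bright in some group to be tested, the counts and medians below describe the genes that passed. The 24 others lay between -7.05 and -0.80 and were not tested. Calls needed a Benjamini-Hochberg adjusted p below 0.05 over the 14443 genes, and a change of 1.5-fold or more, in 1 limma fit to all arrays, and "rose" and "fell" are used only of called genes. Where the lower group was not above background on all its arrays, the fold is given as "at least". It was computed against the higher of the probe's own signal and the dimmest signal above background on each such array. A probe brighter than that dimmest signal could still be flagged as not above background, so this is no strict limit. The words "with Map3k3" stand for tet-Map3k3 cells with Dox.

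**Figure D1:**
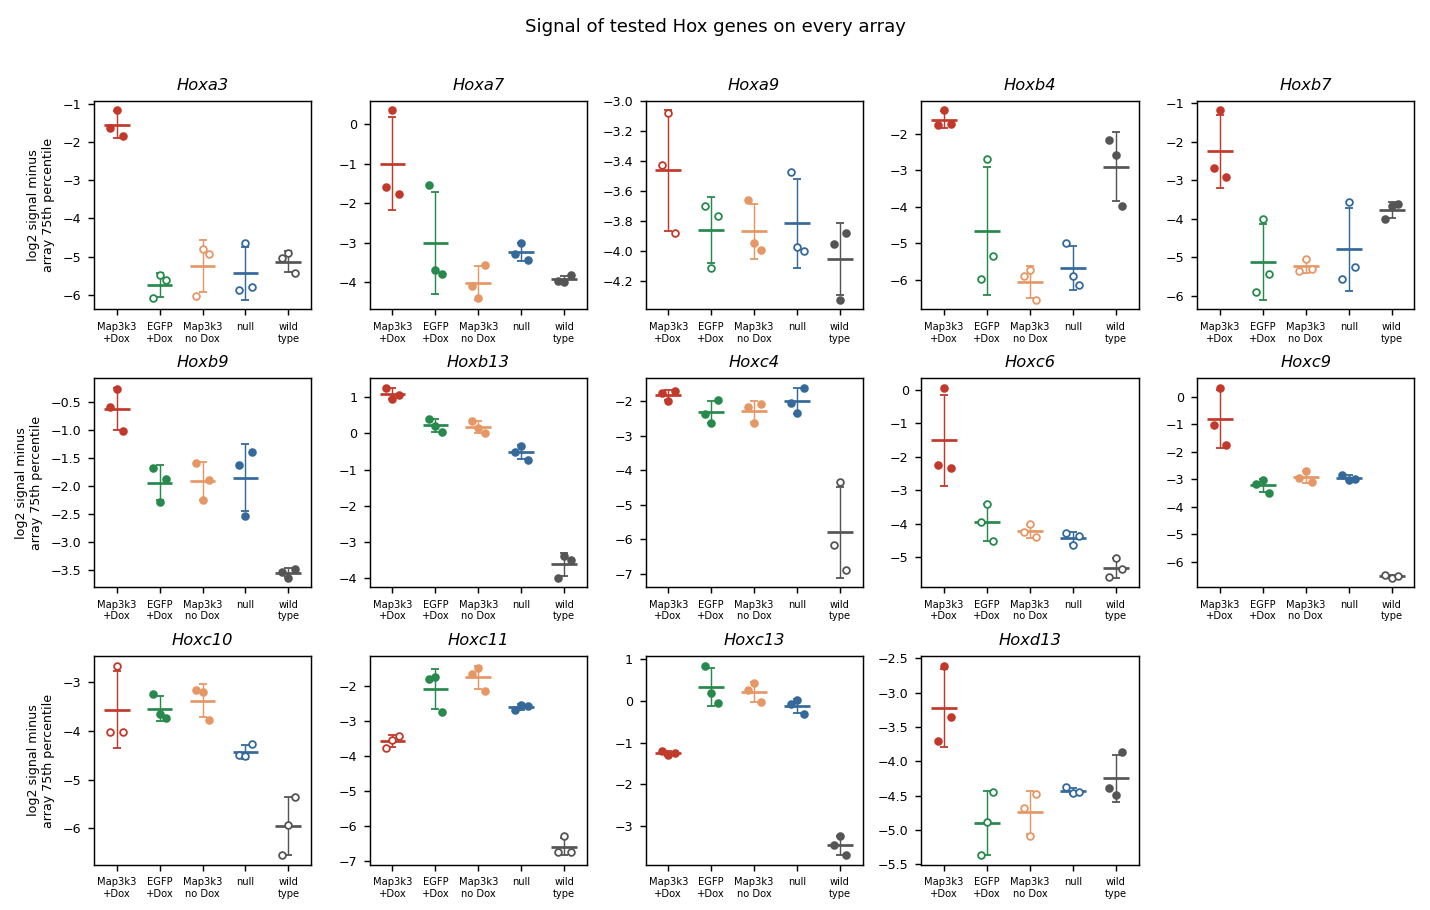
The vertical axis of each panel, with its own range, is log2 intensity minus the 75th percentile of that array, for the tested Hox genes described here in the 5 groups, with 1 point per array, bars for the mean and lines for the SD. Open points mark groups in which the gene was not above background on all 3 arrays, and Hoxa3 in tet-Map3k3 cells with Dox (-1.85 to -1.17) lies above every other group.

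Promoters that RefSeq's table held are shown for the tested genes that were called in null cells against wild type or with Map3k3 against no Dox and EGFP, so that their start regions can be set side by side. No table used here ties a probe to a start site. RefSeq promoter entries, 250 bases before to 50 after a start, were found for 22 of the 39 Hox genes and for 6 of the 15 tested. Hoxa3 (chr6:52213018-52213317, minus strand), Hoxa7 (chr6:52218524-52218823, minus strand), Hoxb4 (chr11:96318017-96318316, plus strand) and Hoxd13 (chr2:74667975-74668274, plus strand) rose with Map3k3 and Dox. Hoxc4 (chr15:103034145-103034444, plus strand) rose in null cells relative to wild type. Coordinates are of GRCm38.p6, the build of that table, and capitals mark matches to the motifs searched.
Hoxa3: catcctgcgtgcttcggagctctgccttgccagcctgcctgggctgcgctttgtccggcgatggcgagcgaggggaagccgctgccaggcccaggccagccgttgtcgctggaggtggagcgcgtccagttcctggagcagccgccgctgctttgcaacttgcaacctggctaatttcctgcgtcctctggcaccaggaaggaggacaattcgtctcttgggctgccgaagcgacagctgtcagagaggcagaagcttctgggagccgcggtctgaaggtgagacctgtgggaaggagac
Hoxa7: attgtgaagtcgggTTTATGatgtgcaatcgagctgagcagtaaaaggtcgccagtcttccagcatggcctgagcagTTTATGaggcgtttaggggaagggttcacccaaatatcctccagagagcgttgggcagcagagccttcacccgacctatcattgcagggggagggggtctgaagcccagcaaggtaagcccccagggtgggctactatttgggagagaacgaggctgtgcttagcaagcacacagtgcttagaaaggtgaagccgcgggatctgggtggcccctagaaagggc
Hoxb4: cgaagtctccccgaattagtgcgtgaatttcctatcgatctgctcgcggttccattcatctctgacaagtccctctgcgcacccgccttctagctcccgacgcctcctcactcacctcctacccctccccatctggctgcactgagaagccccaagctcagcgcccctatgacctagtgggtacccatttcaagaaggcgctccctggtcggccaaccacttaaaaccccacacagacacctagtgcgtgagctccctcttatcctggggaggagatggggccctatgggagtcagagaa
Hoxd13: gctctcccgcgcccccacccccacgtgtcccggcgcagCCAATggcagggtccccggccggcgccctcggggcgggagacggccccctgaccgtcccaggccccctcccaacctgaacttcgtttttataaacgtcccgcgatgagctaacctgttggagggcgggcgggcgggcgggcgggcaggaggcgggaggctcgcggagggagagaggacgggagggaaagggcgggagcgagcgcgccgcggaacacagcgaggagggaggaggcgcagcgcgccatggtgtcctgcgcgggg
Hoxc4: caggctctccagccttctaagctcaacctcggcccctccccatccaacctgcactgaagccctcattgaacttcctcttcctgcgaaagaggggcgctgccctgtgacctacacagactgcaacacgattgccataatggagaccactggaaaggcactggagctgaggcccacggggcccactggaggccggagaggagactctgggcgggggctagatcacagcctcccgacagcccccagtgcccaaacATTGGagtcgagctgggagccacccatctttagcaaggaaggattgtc
The motifs searched on both strands were TGANTCA for AP-1, which MAP kinases act on, CATAAA for Cdx, TGATNNAT for Hox with Pbx, and CCAAT. The Cdx letters occurred in 11.9% of 32851 promoters and had 2 matches in Hoxa7, and CCAAT occurred in 37.4% and matched in Hoxc4 and Hoxd13. No letters of AP-1 or of Hox with Pbx, which 7.81% and 8.85% of promoters hold, were in these 5 windows. The CG dinucleotides numbered 20 in Hoxa3, 9 in Hoxa7, 14 in Hoxb4, 37 in Hoxd13 and 9 in Hoxc4, against a median of 7 over all promoters. A match is a run of letters and not a measured binding site.

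In null cells set against wild type, the posterior genes Hoxb13, Hoxc13 and Hoxc11 rose, together with Hoxc4, Hoxc9 and Hoxb9, and Hoxb4 fell. Hoxc4, Hoxc9, Hoxc10 and Hoxc11 were tested only because groups lacking Nat1 detected them, so that a rise over wild type was built into their choice. Hoxb4 was let in by wild type and tet-Map3k3 cells with Dox and not by null cells, so its fall was favoured too. In all, 8 of the 15 tested Hox genes rose and 1 fell in null cells relative to wild type, or 9 of 15 called, where 37.7% of all tested genes were called (17.2% higher and 20.5% lower). In HoxC 5 of 6 tested genes rose, in HoxB 2 of 4 and in HoxD 0 of 1. By position 6 of 8 posterior genes (9 to 13) rose, and 1 of 5 central genes (4 to 8) rose and 1 fell. The median log2 difference of the 15 was 0.89, against 0.07 over all genes tested. The arrays of null and wild-type cells did not overlap for 11 of the 15, against 71.8% of all genes. Among the 5 Hox genes above background on all 15 arrays, which no group's level selected, 4 rose, where 32.5% of the 11861 genes that meet this were called.

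Hoxc13, which acts in hair and nail keratins and in the tail, was at -0.08, 0.02 and -0.31 in null cells and at -3.46, -3.23 and -3.70 in wild-type cells. The groups did not overlap, and Hoxc13 rose 10.1-fold (log2 difference 3.34, SE 0.21, adjusted p = 6.391e-08). Hoxb13, a posterior gene of the tail bud and prostate, was at -0.51, -0.34 and -0.73 in null cells and at -3.99, -3.39 and -3.50 in wild-type cells. It rose 8.58-fold (log2 difference 3.10, SE 0.17, adjusted p = 2.22e-08), again without overlap.

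Hoxc11, a gene of the hindlimb and sacral region, was at -2.70, -2.55 and -2.59 in null cells and at -6.73, -6.30 and -6.73 in wild-type cells, where it was not well above background on any array. It rose at least 4.31-fold (adjusted p = 6.69e-08). Hoxc9, which shapes thoracic identity of motor neurons and vertebrae, was at -2.86, -3.02 and -2.98 in null cells against -6.47, -6.57 and -6.52 in wild-type cells. It too was above background only in the null group and rose at least 3.40-fold (adjusted p = 4.789e-06). Hoxc4, the most anterior HoxC gene, was at -2.04, -2.34 and -1.60 in null cells and at -6.18, -4.33 and -6.88 in wild-type cells, and only wild-type replicate 2 was above background there. It rose at least 5.86-fold (log2 difference 3.81, adjusted p = 2.72e-05), and without wild-type replicate 2 the log2 difference was 4.54.

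Hoxb9 was at -1.63, -2.53 and -1.39 in null cells and at -3.53, -3.64 and -3.48 in wild-type cells, and rose 3.24-fold (adjusted p = 0.000254). Hoxc10 was below background in both groups, so its call (log2 difference 1.53, adjusted p = 0.003252) carries no fold, and with the slide row as a term the log2 difference was 1.03 with adjusted p = 0.127. The other 8 calls remained with the slide row as a term, and rows hold null and wild-type arrays apart, so for this comparison the row term rests on the other groups.

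Hoxb4, a gene used in blood stem cells and the hindbrain, was the one that fell. It was at -5.00, -5.89 and -6.14 in null cells, not above background, and at -2.18, -2.58 and -3.97 in wild-type cells. The groups did not overlap, and it fell at least 2.51-fold (log2 difference -2.77, SE 0.71, adjusted p = 0.004919). Hoxb7 (log2 difference -1.02, adjusted p = 0.148), Hoxa3, Hoxa7, Hoxa9, Hoxc6 and Hoxd13 were not called. Hoxb7 was called lower with the replicate number as a block (adjusted p = 0.0295), and without null replicate 2, its highest null array (log2 difference -1.64, adjusted p = 0.0229).

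**Figure D2:**
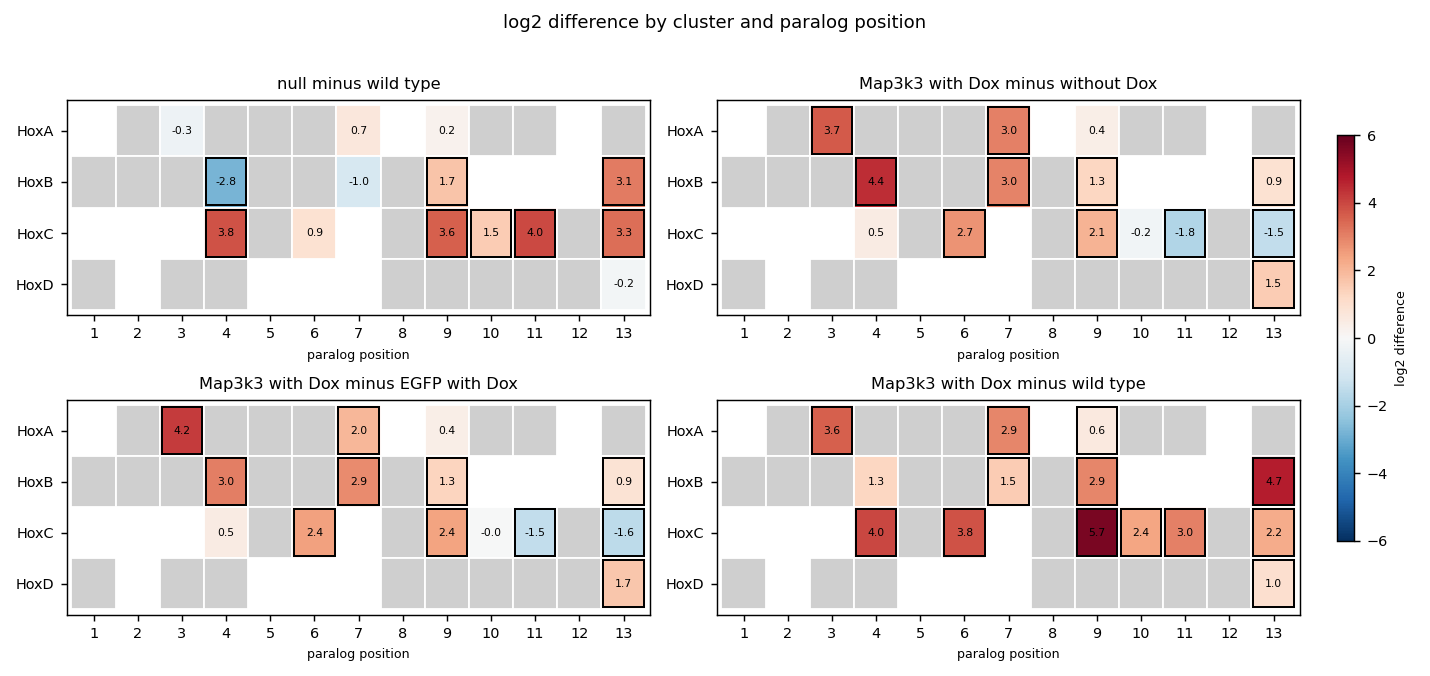
The log2 difference of each tested Hox gene by cluster (rows) and paralog position (columns) in 4 comparisons, coloured and printed, with a black frame around called genes, grey for genes not tested and white where no gene is shown. Null minus wild type has 5 framed HoxC squares. Against no Dox and against EGFP, tet-Map3k3 cells with Dox have framed red squares between positions 3 and 9 and at Hoxb13 and Hoxd13. Framed blue squares lie there at Hoxc11 and Hoxc13, which are red against wild type.

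In tet-Map3k3 cells with Dox, Hoxa3, Hoxa7, Hoxb4, Hoxb7, Hoxb9, Hoxb13, Hoxc6, Hoxc9 and Hoxd13 rose relative to tet-Map3k3 cells without Dox, and Hoxc11 and Hoxc13 fell. Over all 15 tested Hox genes there were 10 rises and 2 falls, or 12 called, where 17.9% of all tested genes were called (12.3% higher and 5.58% lower). The same 10 genes rose and the same 2 fell relative to tet-EGFP cells with Dox, where 18.0% were called (12.4% higher and 5.64% lower). Both comparisons use the same 3 arrays of tet-Map3k3 cells with Dox, so the second is not independent of the first. All 4 tested HoxB genes rose in both comparisons, and 2 of 6 in HoxC and 1 of 1 in HoxD. Neither control group detected Hoxa3, Hoxb4, Hoxb7, Hoxc6 or Hoxd13 on all its arrays. Their rises, and the counts and medians that include them, were therefore favoured by the choice of tested genes. By position 4 of 5 central genes rose (4 to 8), and of 8 posterior genes 4 rose and 2 fell. The median log2 difference of the 15 was 1.52 and 1.68 in the 2 comparisons, against -0.07 and -0.09 over all genes tested. The arrays did not overlap for 13 of the 15 against no Dox and 11 against EGFP, where 50.1% and 49.3% of all genes did not. Among the 5 Hox genes above background on all 15 arrays, 4 rose and 1 fell in each comparison, where 14.5% and 14.9% of the 11861 such genes were called.

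Among anterior genes, Hoxa3, which patterns the pharyngeal arches, thymus and parathyroid, was at -1.65, -1.17 and -1.85 in tet-Map3k3 cells with Dox. It was not above background on any other array, at -6.10, -5.50 and -5.62 in tet-EGFP cells and -6.04, -4.80 and -4.93 without Dox. It rose at least 9.25-fold against no Dox and at least 8.03-fold against EGFP (adjusted p = 1.329e-05 and 4.688e-06).

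Among central genes, Hoxb4 was at -1.75, -1.35 and -1.73 in tet-Map3k3 cells with Dox. In tet-EGFP cells with Dox it was at -5.96, -2.69 and -5.33, with replicate 2 above background, and without Dox at -5.90, -5.72 and -6.54. Hoxb4 rose at least 10.3-fold against no Dox and at least 4.64-fold against EGFP (adjusted p = 0.0004567 and 0.004995). The log2 difference to EGFP was 3.05, and it was 2.40 without EGFP replicate 1 and 4.03 without EGFP replicate 2. It was 2.71 within slide 1, where the call was lost (adjusted p = 0.0551).

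Hoxb7, a gene of the trunk, was at -2.68, -1.18 and -2.91 in tet-Map3k3 cells with Dox. It was below background in tet-EGFP cells (-5.91, -4.02 and -5.42) and without Dox (-5.34, -5.03 and -5.30). It rose at least 6.49-fold against no Dox and at least 4.04-fold against EGFP (adjusted p = 0.001894 and 0.002281), with no overlap. Without replicate 2 of tet-Map3k3 with Dox the log2 differences were 2.43 in place of 2.97 against no Dox and 2.32 in place of 2.86 against EGFP. Both calls remained.

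Hoxa7, a trunk gene whose promoter window above holds 2 CATAAA matches, was at -1.60, 0.36 and -1.76 in tet-Map3k3 cells with Dox. Without Dox it was at -4.09, -4.40 and -3.56, below all of these, and it rose 8.08-fold (log2 difference 3.01, adjusted p = 0.002108). In tet-EGFP cells with Dox it was at -1.53, -3.70 and -3.79, so replicate 1 overlapped the Map3k3 arrays. It rose 4.02-fold against EGFP (log2 difference 2.01, adjusted p = 0.01993). That call was lost without replicate 2 of tet-Map3k3 with Dox (log2 difference 1.33, adjusted p = 0.0759), without EGFP replicate 2 or 3, and within slide 1 (1.61, adjusted p = 0.19). The log2 difference to no Dox was 2.34 without replicate 2 of tet-Map3k3 with Dox, and that to EGFP was 2.74 without EGFP replicate 1. With the slide row as a term the log2 difference to no Dox was 2.32, and the call remained (adjusted p = 0.0265).

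Hoxc6, a thoracic and forelimb gene, was at -2.25, 0.06 and -2.33 in tet-Map3k3 cells with Dox. It was at -3.94, -3.41 and -4.52 in tet-EGFP cells and -4.25, -4.02 and -4.40 without Dox, above background on 1 and 2 of the 3 arrays. It rose at least 6.57-fold against no Dox and at least 5.34-fold against EGFP (adjusted p = 0.001343 and 0.002468). Replicate 2 carried much of this, since without it the log2 differences were 1.93 in place of 2.72 against no Dox and 1.66 in place of 2.45 against EGFP, and both calls remained. Within slide 1 the call against EGFP was lost (log2 difference 2.17, adjusted p = 0.0595). With the slide row as a term the log2 difference to no Dox was 2.06, and the call remained (adjusted p = 0.0174).

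Among posterior genes that rose, Hoxc9 was at -1.04, 0.32 and -1.74 in tet-Map3k3 cells with Dox. It was at -3.17, -3.03 and -3.48 in tet-EGFP cells with Dox and at -2.97, -2.69 and -3.12 without Dox. The groups did not overlap, and it rose 4.30-fold against no Dox and 5.30-fold against EGFP (adjusted p = 0.0008688 and 0.0003175). Without replicate 2 of tet-Map3k3 with Dox the rises were 2.90-fold and 3.57-fold, and both calls remained. Hoxb9 averaged -0.62 ± 0.37 in tet-Map3k3 cells with Dox, -1.94 ± 0.31 in tet-EGFP cells and -1.92 ± 0.33 without Dox (SD, n = 3 each). It rose 2.45-fold and 2.49-fold (adjusted p = 0.003834 and 0.003218 against no Dox and EGFP).

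Hoxb13 averaged 1.09 ± 0.15 in tet-Map3k3 cells with Dox, 0.22 ± 0.18 in tet-EGFP cells and 0.17 ± 0.17 without Dox, and rose 1.90-fold against no Dox and 1.83-fold against EGFP. Hoxd13, a digit and genital gene and the only tested gene of HoxD, was at -3.71, -2.60 and -3.36 in tet-Map3k3 cells with Dox. It was below background in tet-EGFP cells (-5.37, -4.88 and -4.44) and without Dox (-4.68, -5.08 and -4.47). Hoxd13 rose at least 2.79-fold against no Dox and at least 2.24-fold against EGFP (adjusted p = 0.001586 and 0.0007751). Without replicate 2 of tet-Map3k3 with Dox the log2 differences were 1.21 in place of 1.52 and 1.37 in place of 1.675, and both calls remained. With another background correction, normexp, they were 0.578 and 0.523, and both calls were lost.

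Hoxc11 and Hoxc13 went the other way. Hoxc11 was at -3.77, -3.54 and -3.43 in tet-Map3k3 cells with Dox, above background on 2 of 3 arrays. It was at -1.80, -1.75 and -2.74 in tet-EGFP cells with Dox and at -1.67, -1.49 and -2.14 without Dox. No array overlapped, and Hoxc11 fell at least 3.51-fold against no Dox and at least 2.79-fold against EGFP (adjusted p = 0.0001296 and 0.000542). Hoxc11 was let in by both control groups and not by tet-Map3k3 cells with Dox, so its fall was favoured by the choice. Hoxc13 was at -1.20, -1.31 and -1.26 in tet-Map3k3 cells with Dox, at 0.85, 0.20 and -0.05 in tet-EGFP cells and at 0.26, 0.44 and -0.03 without Dox. It fell 2.78-fold against no Dox and 3.00-fold against EGFP (adjusted p = 0.0001564 and 8.426e-05). The 3 Dox arrays of the Map3k3 line lay close together and below all arrays of both control groups.

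Along HoxC the log2 differences to no Dox were 0.48 at Hoxc4, 2.72 at Hoxc6, 2.10 at Hoxc9, -0.19 at Hoxc10, -1.81 at Hoxc11 and -1.48 at Hoxc13. Among the tested genes the rises lay at Hoxc6 and Hoxc9 and the falls at Hoxc11 and Hoxc13, and Hoxc4 and Hoxc10 were not called. Hoxc6 was let in only by tet-Map3k3 cells with Dox and Hoxc11 only by the other groups lacking Nat1. The directions of Hoxc6 and Hoxc11 were therefore favoured by the choice, and Hoxc5, Hoxc8 and Hoxc12 were not tested. Against EGFP the values at the same genes were 0.50, 2.45, 2.41, -0.03, -1.48 and -1.59, and within slide 1 Hoxc4 was called higher (0.67, adjusted p = 0.0404). In HoxB the last gene Hoxb13 rose by 0.93 and 0.87. Hoxa9, whose second probe was below background everywhere, was called in neither comparison (log2 differences 0.41 and 0.40), but was called in both without replicate 3 of tet-Map3k3 with Dox (0.62 and 0.61, adjusted p = 0.0384 in each).

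Of the genes called in null cells against wild type, Hoxb9, Hoxb13 and Hoxc9 rose there and also rose in tet-Map3k3 cells with Dox against both controls. Hoxc11 and Hoxc13 rose in null cells and fell with Map3k3, Hoxb4 fell in null cells and rose with Map3k3, and Hoxc4 and Hoxc10 were called in null cells and in neither Map3k3 comparison. For Hoxc11 and Hoxb4 both changes were favoured by the groups through which they were let in. Hoxc13 was let in through all groups. Hoxa3, Hoxa7, Hoxb7, Hoxc6 and Hoxd13 were called with Map3k3 and not in null cells. Whether these responses differ was not tested as an interaction.

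Set directly against wild type, tet-Map3k3 cells with Dox had 14 of 15 tested Hox genes higher and none lower, where 38.2% of all tested genes were called (18.3% higher and 19.9% lower). The arrays did not overlap for 14 of the 15, against 70.7% of all genes. Wild-type cells did not let in Hoxa3, Hoxc4, Hoxc6, Hoxc9, Hoxc10 or Hoxc11, so their rises were favoured by the choice. Hoxb4 was not called, at -1.75, -1.35 and -1.73 in tet-Map3k3 cells with Dox and -2.18, -2.58 and -3.97 in wild-type cells (log2 difference 1.30, adjusted p = 0.1342). Hoxc13 and Hoxc11, which had fallen with Map3k3, were still 4.64-fold and at least 2.20-fold higher than in wild type, and Hoxb13 was 26.3-fold higher. Hoxc9 was at least 14.9-fold higher, Hoxc6 at least 9.25-fold and Hoxa3 at least 8.96-fold. No slide held both groups, and with slide as a term, which rests on the EGFP arrays, 11 genes were called, since Hoxa7 (log2 difference 1.74), Hoxa9 and Hoxb7 lost their calls. Without replicate 2 of tet-Map3k3 with Dox, Hoxc6 kept its call at a log2 difference of 3.02 in place of 3.81 and Hoxa7 at 2.24 in place of 2.92, and without wild-type replicate 2 Hoxc4 was at 4.72 in place of 3.99. Without replicate 2 of tet-Map3k3 with Dox 12 were called, since Hoxa9 and Hoxb7 lost theirs (adjusted p = 0.128 and 0.175). Hoxa9 also lost its call without replicate 1 of that group or without wild-type replicate 2 (adjusted p = 0.0704 and 0.119). Hoxb7 also lost its call without any 1 of the 3 wild-type arrays (adjusted p = 0.0717 to 0.106).

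The transgenic control groups were then set against null cells without a named transgene. In limma's test no Hox gene was called in tet-EGFP cells with Dox against null cells, nor in tet-Map3k3 cells without Dox against null cells. Over all 14443 genes 0.00692% were called in the first comparison and 0% in the second. At an unadjusted p under 0.05, 3 Hox genes were higher in tet-EGFP cells with Dox and 3 in tet-Map3k3 cells without Dox, where 7.23% and 14.4% of all genes passed. The arrays of 3 and 5 of the 15 genes did not overlap, against 11.6% and 21.0% of all genes. Hoxb13, above background in all these groups, differed from null cells by 0.75 in tet-EGFP cells with Dox and by 0.69 in tet-Map3k3 cells without Dox (adjusted p = 0.243 and 0.143). Hoxc11 differed by 0.51 and 0.84 (adjusted p = 0.702 and 0.187), and with slide as a term these differences were -0.13 and -0.12.

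The genes that act on the clusters were also read. For the counts of the lists below, 37.7% of all tested genes were called in null cells against wild type. With Map3k3 and Dox 17.9% were called against no Dox and 18.0% against EGFP. Whether a list exceeded these shares was not tested. Of 10 tested regulators of Hox expression, 2 rose and 7 fell in null cells relative to wild type. Wnt3 (at least 8.05-fold), T (at least 11.4-fold), Egr2 (at least 6.06-fold) and Cdx2 (at least 2.08-fold) fell, named by their log2 differences, and none of them was above background in null cells. Lin28b, which blocks maturation of let-7 microRNAs, was above background in both groups and fell 7.51-fold. Wnt3 is a Wnt ligand and T the transcription factor Brachyury, both needed for the primitive streak, Egr2 drives Hox genes in the hindbrain, and Cdx2 binds and opens Hox clusters. With Map3k3 and Dox 4 rose and 2 fell against no Dox, and 3 rose and 2 fell against EGFP. Among these rises T in both comparisons and Wnt3 against no Dox were below background in both groups and carry no fold. T lost its call without 1 of several arrays (adjusted p = 0.0506 to 0.147), and Wnt3 likewise (adjusted p = 0.0582 to 0.0739).

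Cdx2 was at 0.43, 1.57 and 0.48 in tet-Map3k3 cells with Dox and not above background in the other null groups, at -6.13, -6.38 and -6.66 in tet-EGFP cells and -6.82, -6.99 and -6.68 without Dox. It rose at least 55.7-fold against no Dox and at least 41.7-fold against EGFP (adjusted p = 6.814e-10 and 1.365e-09). Its paralog Cdx1 was at 2.46, 1.36 and 2.19 in tet-Map3k3 cells with Dox, 0.27, -0.28 and 0.29 in tet-EGFP cells, 0.30, -0.29 and 0.07 without Dox, 0.08, -0.33 and 0.01 in null cells and -1.48, -1.54 and -1.61 in wild-type cells. Cdx1 rose 2.76-fold in null cells and a further 3.93-fold with Map3k3 against no Dox, while Cdx2 was lower in null cells than in wild type.

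Of 18 tested genes of the retinoic acid pathway, 9 rose and 1 fell against no Dox, 7 rose and 0 fell against EGFP, and 2 rose and 8 fell in null cells relative to wild type. Stra8, a retinoic acid target, was at 1.24, -2.17 and 1.00 in tet-Map3k3 cells with Dox and at -2.53, -3.14 and -2.66 without Dox. It rose 6.96-fold (adjusted p = 0.0084), and replicate 2, which was highest for several Hox genes, was its lowest array. Without replicate 2 the rise was 14.9-fold and without replicate 1 it was 4.56-fold, and both kept the call. Aldh1a3, which makes retinoic acid, rose 6.00-fold against no Dox, Rarb, a receptor that retinoic acid itself induces, at least 2.49-fold, and Cyp26a1, which degrades retinoic acid, at least 3.95-fold. Without no-Dox replicate 2 the log2 difference of Cyp26a1 was 3.58 in place of 2.96. Cyp26a1 was not called against EGFP, except without EGFP replicate 1 (adjusted p = 0.0463).

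Of 11 TALE cofactors, homeodomain proteins that bind DNA together with Hox proteins, Meis2 and Pbx2 rose and Meis1 and Pbx3 fell in null cells. Of all tested genes 37.7% were called there. Meis1 was at -0.999, -0.84 and -0.94 in tet-Map3k3 cells with Dox, -3.56, -3.41 and -3.46 in tet-EGFP cells, -3.43, -3.45 and -3.21 without Dox, -3.54, -3.17 and -3.33 in null cells and -1.83, -1.54 and -1.62 in wild-type cells. Only the tet-Map3k3 cells with Dox lay above wild type. Meis1 rose 5.41-fold against no Dox and 5.85-fold against EGFP, and Pbx3 1.90-fold and 1.92-fold.

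**Figure D3:**
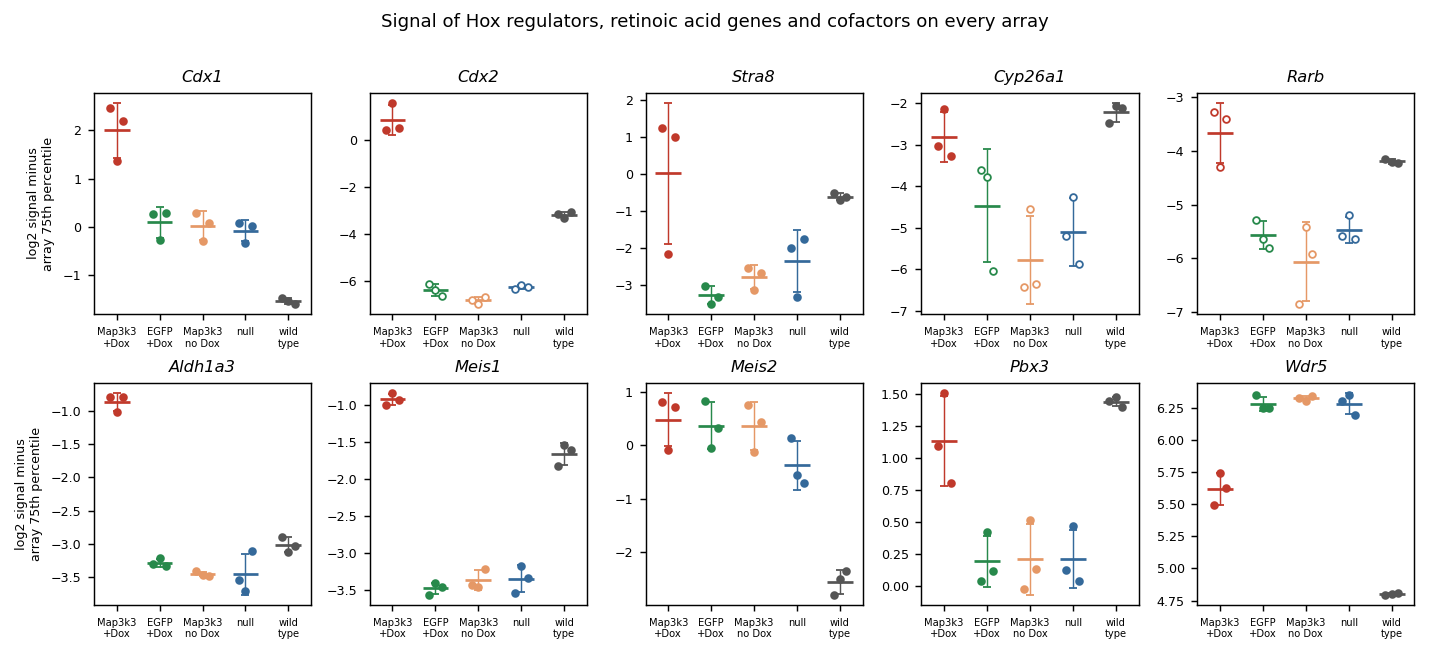
The vertical axis of each panel, with its own range, is log2 intensity minus the 75th percentile of that array, for 10 regulators, retinoic acid genes, cofactors and a chromatin gene in the 5 groups, with 1 point per array, bars for the mean and lines for the SD. Open points mark groups not above background on all 3 arrays, and Cdx2 in tet-Map3k3 cells with Dox (0.43 to 1.57) lies above wild type (-3.31 to -3.08).

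Among 27 tested chromatin regulators of the clusters, 13 rose and 2 fell in null cells, with Wdr5 (2.79-fold) and Rbbp5 (2.58-fold), subunits of the complexes that methylate histone H3 at active genes, rising most. Kdm6b, which removes a Polycomb mark, rose 2.17-fold, and Ezh1, which writes that mark, fell 2.17-fold. With Map3k3 and Dox 1 rose and 1 fell in each comparison, Wdr5 falling 1.63-fold against no Dox and 1.59-fold against EGFP. Of all tested genes 17.9% and 18.0% were called in these comparisons.

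Of 16 tested genes that neighbour the clusters, 0 rose and 1, Nfe2, fell with Map3k3 and Dox against no Dox, and 0 rose and 2, Nfe2 and Lnpk, fell against EGFP. Nfe2 lost its call without replicate 2 of tet-Map3k3 with Dox or 1 of several control arrays (adjusted p = 0.0626 to 0.112), and Lnpk came to 1.37-fold without EGFP replicate 2 and 1.41-fold without replicate 3 of tet-Map3k3 with Dox. In null cells 8 of the 16 rose and 1, Skap1 beside HoxB, fell, against the background of 37.7%. Evx1, at the posterior end of HoxA, rose 2.55-fold in null cells, a call lost without null replicate 2 (adjusted p = 0.0517). Of the noncoding RNAs of the clusters 6 of 21 listed were on the array, 2 were tested and neither was called with Map3k3 or in null cells.

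Markers of other cell types moved in the same comparisons as the Hox genes, and their part in the Hox results was not tested. Of all tested genes 37.7% were called in null cells against wild type, 17.9% against no Dox and 18.0% against EGFP. In bulk samples fewer cells of a type and less RNA per cell cannot be told apart. Of 13 tested trophectoderm markers, which include Cdx2, 12 rose against no Dox and 11 against EGFP, and 10 fell and 2 rose in null cells. The summed signal of the list, in multiples of the array's 75th percentile, was 371 to 438 in tet-Map3k3 cells with Dox, 14.9 to 30.6 in tet-EGFP cells, 15.7 to 30.4 without Dox, 16.0 to 35.5 in null cells and 211 to 220 in wild-type cells. Cdx2 and Gata3 were above background on no array of tet-EGFP cells, Cdx2, Gata3 and Hand1 on none without Dox, and Cdx2 and Hand1 on none of null cells. Of 13 primitive endoderm markers 10 rose and 2 fell against both controls, with sums of 294 to 346 in tet-Map3k3 cells with Dox, 184 to 193 in tet-EGFP cells, 173 to 192 without Dox, 161 to 170 in null cells and 195 to 244 in wild-type cells. In null cells 2 of the 13 rose and 7 fell.

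Fibroblast and feeder markers summed to 117 to 161 in tet-Map3k3 cells with Dox, 132 to 151 in tet-EGFP cells, 128 to 161 without Dox, 112 to 130 in null cells and 199 to 204 in wild-type cells. Of 13 tested, 5 rose and 1 fell against no Dox, 6 rose and 1 fell against EGFP, and 0 rose and 9 fell in null cells. Neural markers summed to 9.39 to 13.5 in tet-Map3k3 cells with Dox, 7.31 to 11.45 in tet-EGFP cells, 9.02 to 11.3 without Dox, 7.95 to 11.8 in null cells and 45.4 to 46.6 in wild-type cells, and 7 of 10 fell in null cells. With Map3k3 and Dox 4 rose and 1, Tubb3, fell against no Dox, and 3 rose and Tubb3 fell against EGFP, with Sox11 rising 12.8-fold against no Dox. Of 12 mesoderm markers 5 rose and 0 fell against no Dox, 4 rose and 1, Meox1, fell against EGFP, and 1 rose and 3 fell in null cells. Their sums were 33.6 to 38.96 in tet-Map3k3 cells with Dox, 29.3 to 32.1 in tet-EGFP cells, 27.5 to 29.5 without Dox, 31.3 to 38.4 in null cells and 22.0 to 23.3 in wild-type cells. Of the 10 stem cell markers 7 rose in null cells, Klf4 by 9.58-fold and Sox2 by 3.24-fold among them, and none fell. With Map3k3 and Dox 0 rose and 4, Pou5f1, Sox2, Esrrb and Dnmt3l, fell against no Dox, and 3 of these, without Sox2, fell against EGFP. Their sums were 980 to 1031 in tet-Map3k3 cells with Dox, 1310 to 1320 in tet-EGFP cells, 1276 to 1347 without Dox, 1307 to 1396 in null cells and 749.6 to 803 in wild-type cells.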

How the data were processed

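RNA of 15 samples was hybridised to single-colour Agilent arrays and read with Feature Extraction 11.5.1.1 (protocol GE1_1105_Oct12), per the file headers. The deposited intensity is the processed green signal, already background-corrected by that software. Here log2 intensity was averaged over the spots of a probe, outlier spots left out, and the array's 75th percentile was subtracted. These values matched the authors' deposited log2 values (correlation 1 on every array). Probes were named through RefSeq accessions. Their annotation build is mm9, per the file headers.

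The brightest passing probe stood for a gene (14443 genes). Group means were fitted with limma 3.58.1 (R 4.3.3), with 10 residual degrees of freedom, after a check on simulated data. Two-sided p-values were adjusted by the Benjamini-Hochberg method. The number of arrays limits the precision. Tested Hox genes were named with values, and of each other list at most 4 called genes of largest difference were named per comparison, with a few added after their values were seen. The members and lists were chosen with earlier results of these data known. Some items are not reported here.

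Same-numbered arrays deviated together in the 4 comparisons among null groups (correlations 0.101 to 0.617), but not in those with wild type (-0.028 to 0.059). For replicate 1 of tet-Map3k3 with Dox against EGFP, another number correlated more (0.186 against 0.101). The labels state no pairing.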

Additional observations from a re-analysis of the deposited data

How the results depend on the processing

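The counts of called Hox genes in the order null against wild type, Map3k3 with Dox against no Dox, against EGFP and against wild type were 9, 12, 12 and 14. They moved by over 1.5 times only with the filter on dim probes. With no filter 21 of 39 genes were called against no Dox and 26 against wild type, where 13.6% and 35.8% of all genes were. The median over all genes then moved from -0.07 to 0.09 and from -0.01 to 0.18. Of the 3 tet-Map3k3 arrays with Dox 2 lay in row 2, where the lowest signal was higher, and all arrays compared with them in row 1. For dim probes a rise and this difference cannot be told apart. With only probes above background on all 15 arrays 5 Hox genes remain by construction, and 4, 5, 5 and 5 were called. Leaving out 1 array gave 9 to 10, 12 to 13, 11 to 13 and 12 to 14, and 0 in both comparisons with null cells. The replicate block gave 10, 12, 12 and 14, and 0 for EGFP and for no Dox against null cells. In the comparisons among null groups it changed no Hox call. Slide as a term gave 9, 12, 11 and 11. No called difference turned its direction. Of 43 differences not called 28 turned under some setting. With the row term, Hoxa7 and Hoxc6 were at -0.36 and -0.09 in null cells against wild type, and Hoxa7 at 0.27 in no Dox against null cells. Among called genes, 618 of the values under other settings kept the call and 24 lost it, and 272 kept and 10 lost it when an array was left out. Detection on at least 2 of 3 arrays gave 17 Hox genes in tet-Map3k3 cells with Dox, 10 in tet-EGFP cells, 11 without Dox, 8 in null cells and 9 in wild-type cells. With the software's weaker flag the numbers on all 3 arrays were 22, 15, 18, 16 and 15. Background correction by normexp, chosen after seeing the data on the median signal because no mean signal column was given, gave 7, 11, 11 and 13. With it Hoxd13 lost its calls against no Dox, EGFP and wild type (log2 differences 0.578, 0.523 and 0.466). Hoxc10 in null cells (0.49) and Hoxa9 against wild type (0.265) also lost theirs, and Hoxb4 against wild type was called (0.829). Over all settings the lowest log2 difference in null cells was 1.183 for Hoxc11 and 1.047 for Hoxc9. For Hoxa3 it was 1.697 against no Dox and 1.642 against EGFP. The folds given as "at least" thus hold for the main processing only. Normexp on the mean signal was not run. Leaving out 1 array for the named genes that are no Hox genes was also chosen after seeing the data. Most Hox probes lay near background, where differences are bounds or were not tested. The causes were not tested.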

Other observations

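Several Hox genes that were not tested were above background on only some arrays. Hoxb6, a central HoxB gene, was at -3.70, -0.80 and -3.94 in tet-Map3k3 cells with Dox, above background in replicates 1 and 2, and between -6.73 and -4.96 on all other arrays. Hoxd8, a central gene of HoxD, was at -3.25, -2.93 and -3.44 in tet-Map3k3 cells with Dox, above background on 2 of these arrays, and between -6.58 and -4.82 elsewhere. Hoxb8 was above background in replicate 2 of tet-Map3k3 with Dox alone (-2.38, against -5.40 and -6.14 in the other replicates). Hoxc8 was at -1.83 in wild-type replicate 1 and had a median of -6.27 over the 15 arrays. Hoxa10 was above background in replicate 2 of tet-Map3k3 with Dox (-2.77) and in null replicate 1 (-3.27).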
